A study of Mus musculus with 38 samples.

Results

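YAP and TAZ are transcriptional coactivators at the end of the Hippo pathway, and 10 genes of that system were described here across 10 groups of mouse kidney tumours, tumour cell lines and normal kidney. The 10 genes were taken by symbol from a table of 21705 genes. They are the 2 coactivator genes Yap1 (YAP) and Wwtr1 (TAZ), the 4 TEAD genes Tead1, Tead2, Tead3 and Tead4, and the 4 target genes Ctgf, Cyr61, Ankrd1 and Amotl2. All 10 were found and all 10 were tested in every comparison.

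In the Hippo pathway the kinases Mst1 and Mst2 (genes Stk4 and Stk3) with their scaffold Sav1 activate the kinases Lats1 and Lats2, which phosphorylate YAP and TAZ and keep them out of the nucleus. Unphosphorylated YAP and TAZ enter the nucleus and bind TEAD proteins, which hold the DNA-binding domain, and the complexes activate genes such as Ctgf and Cyr61. Cell contact, cell shape and matrix stiffness act on this step, so the activity of YAP and TAZ is set largely on the protein and is not measured by the RNA levels of Yap1 and Wwtr1. In kidney tubules YAP and TAZ are known for roles in development, injury repair and epithelial tumours.

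The RNA came from 3 tumour models. MYC+ mice carry Tet-O-MYC, a MYC transgene switched on by doxycycline (Dox), with rtTA driven by the Ksp-cadherin promoter of kidney tubule cells. VM mice (Vhl-/-; MYC +) also lose Vhl in the cells where a tamoxifen-induced Cre under the same promoter acts, and VIM mice (Vhl-/-; MYC +; Ink-/-/Arf-/-) in addition lack Ink4a/Arf (Cdkn2a) in every cell. There were 4 libraries labelled as maintained on Dox and 4 labelled as withdrawn from Dox for each of the lines MYC-2983, VM-3055 and VIM-3039. The lines had been grown in 2 µg/ml Dox, and RNA was taken 24 h after they were seeded either with Dox or with Dox withdrawn. For VM and VIM cells the line number is taken from the study's methods, since the sample labels name the genotype and a replicate. There were 3 libraries of tumours of each genotype, all labelled as maintained on Dox, and 5 of normal kidney labelled Wild Type and vehicle. Titles of the normal kidneys begin with B6 in 2 libraries and with KT in 3, and the sources used here do not explain these prefixes. The study's methods give an age only for the start of Dox chow, and the ages at which tumours and normal kidneys were taken are not given in the sources used here. The 3 MYC tumour libraries come from 2 mice, since 2 of them carry the number of mouse 2983, which also gave the cell line, and one VM tumour carries the number 3055. Each line comes from 1 tumour, so line and genotype cannot be told apart. In the sample titles the MYC-2983 libraries carry a number series of their own, while the VM and VIM cell libraries share another. What the series means is not given in the sources used here, so series and line cannot be told apart where MYC-2983 is compared. No line without the transgene was included, so Dox itself and MYC activation cannot be told apart, and the labels do not say whether the 4 libraries of a group were separate cultures, so the p-values measure the spread between libraries.

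Values are RSEM estimates that the authors scaled to an upper quartile of 1000 in each library, here called units. Estimated reads per library ran from 8.22 to 36.6 M (median 15.2 M), and 3 reads, the floor used here for barely detected genes, were worth 1.16 to 5.65 units. Levels carry their SD over libraries. Changes are differences of mean log2(value + 1) with their standard error (SE) from limma, and a gene was called when its Benjamini-Hochberg adjusted p over all genes tested was under 0.05 and its change exceeded 1 on the log2 scale in either direction. The Vhl row was 526 to 543 and 433 to 461 units in the MYC-2983 libraries without and with Dox, but at most 38.8 in VM-3055 and 24.9 in VIM-3039, and Cdkn2a was at most 40.8 units in VIM-3039 cells against at least 3056 in the other lines. In VIM tumours Vhl lay at 219 to 312 units. Among MYC tumours Cdkn2a was 108, 2872 and 59.3 units, so the 2 libraries of mouse 2983 differed widely. The mouse Myc row went against the Dox labels: it was lower in the libraries labelled Dox, at 651 to 699 against 1764 to 1868 units in MYC-2983, 338 to 413 against 1308 to 1406 in VM-3055 and 359.8 to 432 against 1384 to 1532 in VIM-3039 cells. The sources used here do not give the species of the transgene, so this row may not measure it. Of the 4 nucleolar genes Ncl, Nolc1, Nop56 and Fbl, which MYC is known to activate, 3 were called higher in MYC-2983 and all 4 in the other lines in the libraries labelled Dox. These 4 genes were chosen with earlier results of these data known. The numbers of all genes called higher in each line are given below. In MYC-2983 cells Nop56 changed by 0.94, and the log2 changes of Nolc1 were 1.49, 2.29 and 2.42 in MYC-2983, VM-3055 and VIM-3039. Directions given below for Dox rest on these labels.

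Promoter sequences of target genes are shown first. TEAD proteins are known to bind the core GGAATG, read as CATTCC on the other strand. The part of this core in the changes below was not tested. RefSeq promoters (GRCm38.p6) were given for 7 of the 10 genes, with Cyr61 under its present symbol Ccn1, and Ctgf, Tead1 and Tead4 had no entry. The 250 bases before the start site were searched on both strands. Capitals mark each match of the TEAD core.
Cyr61, chr3:145649986-145650235, minus strand: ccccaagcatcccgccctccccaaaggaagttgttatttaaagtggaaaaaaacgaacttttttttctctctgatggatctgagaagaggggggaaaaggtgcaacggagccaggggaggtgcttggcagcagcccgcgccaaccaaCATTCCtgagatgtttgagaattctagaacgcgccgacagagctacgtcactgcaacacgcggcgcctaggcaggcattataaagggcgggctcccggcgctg
Ankrd1, chr19:36119845-36120094, minus strand: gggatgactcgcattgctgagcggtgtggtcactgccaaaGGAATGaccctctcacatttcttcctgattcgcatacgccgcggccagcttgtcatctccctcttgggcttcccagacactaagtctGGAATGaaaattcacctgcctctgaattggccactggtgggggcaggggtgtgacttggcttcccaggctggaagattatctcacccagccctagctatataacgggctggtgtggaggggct
Amotl2, chr9:102717554-102717803, plus strand: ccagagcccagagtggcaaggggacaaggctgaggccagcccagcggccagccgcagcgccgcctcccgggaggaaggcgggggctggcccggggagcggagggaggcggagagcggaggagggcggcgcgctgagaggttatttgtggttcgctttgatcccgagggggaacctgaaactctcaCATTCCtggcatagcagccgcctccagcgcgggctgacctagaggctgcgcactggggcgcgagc

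The core stood once before Cyr61, with its first base at -103 from the start site, 2 times before Ankrd1, at -210 and -123, and once before Amotl2, at -65. A match also stood in the window of Yap1, in both overlapping windows of Wwtr1 and in 2 of the 3 windows of Tead3, and none stood before Tead2. Of all 27025 genes with a promoter in the table, 14.4% had at least 1 window with the core. The E-box CACGTG, which MYC with MAX binds, stood before Yap1 alone of the 7 genes, at -163 and clear of the TEAD core there, and before 6.86% of all genes. A match describes letters in a window and not binding.

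In the mm9 annotation (NCBIM37, GENCODE vM1) Yap1 lies at chr9:7931999-8004596 and Wwtr1 at chr3:57259571-57379832, both on the minus strand. Ctgf lies at chr10:24315248-24318489 on the plus strand, Cyr61 at chr3:145309935-145312949 on the minus strand, Ankrd1 at chr19:36186455-36194334 on the minus strand and Amotl2 at chr9:102619002-102635748 on the plus strand. Tead1 lies at chr7:119822832-120050319 and Tead2 at chr7:52471123-52489005 on the plus strand, Tead3 at chr17:28468616-28487750 and Tead4 at chr6:128174306-128250841 on the minus strand. The values are for whole genes, exons together. Yap1, Wwtr1, Tead1, Tead2 and Ctgf each overlap an annotated gene on the other strand. The library kit keeps strand, but the strand setting of the counting is not given in the sources used here. The overlapping gene at Tead2 is the leukocyte gene Cd37, which was at most 6.98 units in the cell lines and 8.76 to 19.03 units in normal kidney. It was 15.7 to 101 units in MYC, 7.57 to 63.9 in VM and 18.8 to 59.95 in VIM tumours. The part of Cd37 reads in the Tead2 values was not tested.

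**Figure D1:**
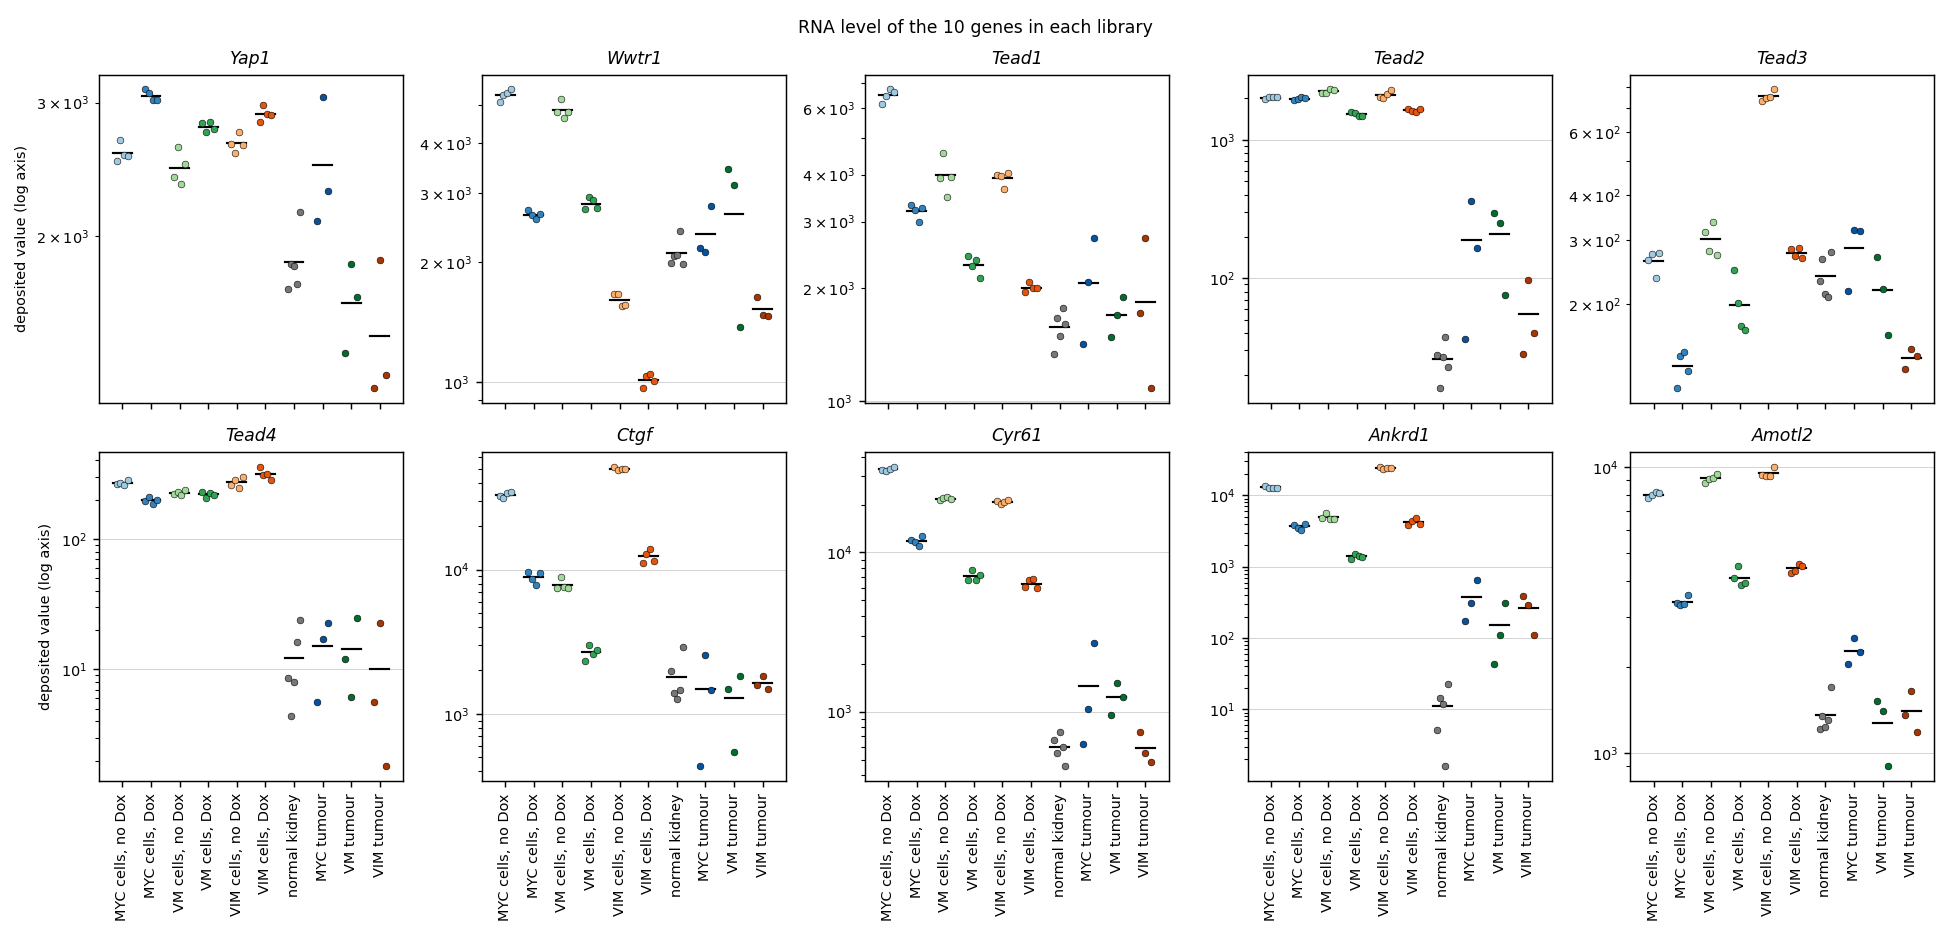
Deposited value in units (log axis, a separate scale for each panel) of each of the 10 genes in each of the 38 libraries, by group, with the group mean as a bar. The 4 target genes sit lower in the libraries labelled Dox than in those without Dox in each line, and Tead2, Tead4 and Ankrd1 sit far lower in tissue than in cells.

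Among the coactivators, Wwtr1 RNA was lower and Yap1 RNA was slightly higher in the libraries labelled Dox in all 3 lines. Yap1 in MYC-2983 cells was 2515, 2678, 2561 and 2552 units without Dox and 3123, 3088, 3028 and 3020.4 with Dox. In VM-3055 cells it was 2392, 2618, 2339 and 2486 units without and 2818, 2746, 2829 and 2765 with Dox. In VIM-3039 cells it was 2646, 2576, 2744 and 2639 units without and 2826, 2980.2, 2900.3 and 2892 with Dox. The groups did not overlap within any line, although the gap was small. The changes of Yap1 were 0.25 ± 0.03 (SE), 0.18 ± 0.04 and 0.13 ± 0.03 on the log2 scale, with limma adjusted p of 7.11e-08, 0.00104 and 0.000805, and none was called because none exceeded 1. With TMM rescaling the Yap1 changes were 0.36, 0.40 and 0.27.

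Wwtr1 in MYC-2983 cells was 5083, 5302, 5365 and 5467 units without Dox and 2719, 2637, 2569 and 2646 with Dox. In VM-3055 cells it was 4809, 5170.2, 4623 and 4785 without and 2733, 2921, 2870.1 and 2745 with Dox. In VIM-3039 cells it was 1664, 1661, 1554 and 1563 without and 964, 1032, 1048 and 1004 with Dox. Every library labelled Dox lay below every library without Dox of its line. The change was -1.005 ± 0.03 (adjusted p = 3.91e-16, limma), -0.78 ± 0.04 (2.64e-11) and -0.67 ± 0.04 (6.22e-13), so Wwtr1 was called in MYC-2983 cells alone. That call sat at the edge of the limit: the change was -0.89 with TMM rescaling, -0.93 with quantile normalization, and fell short of the limit, at -0.99 to -0.999, without Dox library 3 or no-Dox library 3 or 4.

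The ratio of Wwtr1 to Yap1 within a library is not changed by a factor applied to the whole library, such as TMM rescaling. It was 1.98 to 2.14 in MYC-2983 libraries without Dox and 0.848 to 0.876 with Dox, 1.92 to 2.01 and 0.970 to 1.06 in VM-3055, and 0.566 to 0.645 and 0.341 to 0.361 in VIM-3039. The ratio was 2.39-fold lower with Dox in MYC-2983, 1.95-fold lower in VM-3055 and 1.74-fold lower in VIM-3039 cells, with no overlap between libraries. A two-sided exact permutation test gave p = 0.0286 in each line, also after Benjamini-Hochberg adjustment over the 3 lines, which is the smallest value that 4 against 4 libraries allow. In tissue the ratio was 0.923 to 1.39 in normal kidney, 0.698 to 1.21 in MYC, 0.828 to 2.46 in VM and 0.795 to 1.30 in VIM tumours. These tissue ranges overlapped each other.

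**Figure D2:**
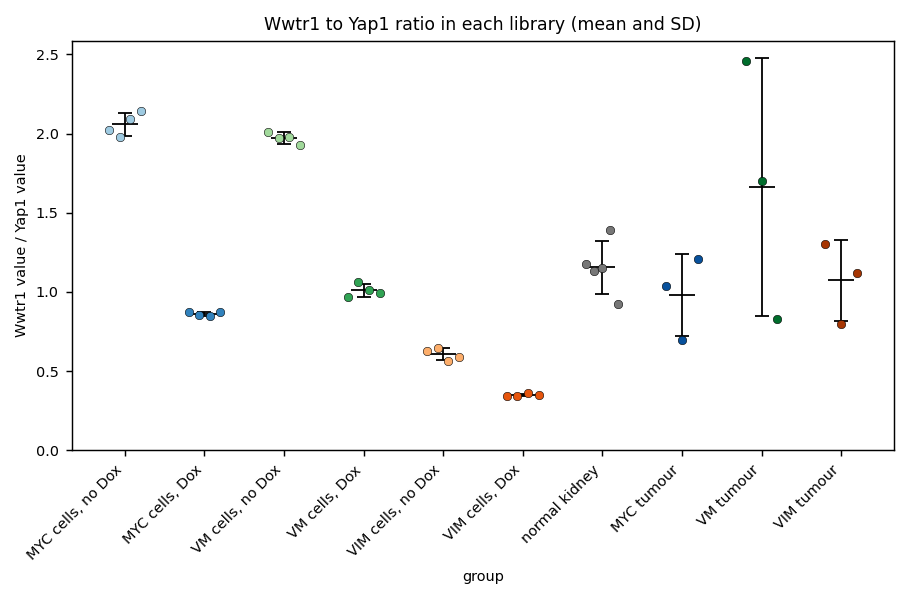
Ratio of the Wwtr1 value to the Yap1 value (axis from 0) in each library by group, with the group mean and SD as a bar. In each line the libraries labelled Dox sit below those without Dox, and all VIM-3039 libraries sit below those of the other lines.

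The 4 target genes were the members with the largest falls with Dox in VM-3055 and in MYC-2983 cells, and all 4 were called lower in all 3 lines. Ctgf encodes CCN2, a secreted matricellular protein. Its level in MYC-2983 cells was 32365, 31391, 33722 and 34392 units without Dox and 9554, 8577, 7869 and 9469 with Dox. In VM-3055 cells it was 7419, 8921, 7569.8 and 7440.2 without and 2324, 3012, 2583 and 2755 with Dox. In VIM-3039 cells it was 51299.6, 49219.5, 49745 and 49473 without and 11186, 12904, 13886 and 11493 with Dox. The groups lay well apart in each line. Ctgf was 3.73-fold lower with Dox in MYC-2983 (log2 change -1.90 ± 0.05, limma adjusted p = 2.13e-16), 2.94-fold lower in VM-3055 (-1.56 ± 0.07, 1.18e-12) and 4.05-fold lower in VIM-3039 cells (-2.02 ± 0.05, 5.97e-19).

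Ankrd1, a nuclear ankyrin repeat protein first known from heart muscle, fell in the libraries labelled Dox as well. In MYC-2983 cells it was 13484, 12805, 12777 and 12779 units without Dox and 3887, 3541, 3297 and 3921 with Dox. In VM-3055 cells it was 4889.8, 5630.5, 4704 and 4687 without and 1284, 1512, 1395 and 1376 with Dox. In VIM-3039 cells it was 24963, 23361, 24156 and 23988 without and 3821, 4437, 4739 and 3957 with Dox. It was 3.55-fold, 3.57-fold and 5.71-fold lower with Dox, with changes of -1.83 ± 0.04, -1.84 ± 0.06 and -2.51 ± 0.05. The limma adjusted p was 6.27e-17, 1.61e-14 and 1.46e-20. The VIM-3039 value was the lowest change of any member in any line.

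Cyr61 encodes CCN1, a secreted relative of CCN2. In MYC-2983 cells it was 32923, 32449, 33642 and 34401 units without Dox and 12049, 11654, 11019.9 and 12609.5 with Dox. In VM-3055 cells it was 21324, 21898, 22438 and 21505 without and 6749, 7706, 6665 and 7179 with Dox, and in VIM-3039 cells 21066, 20044, 20632 and 21402 without and 6052, 6672, 6761 and 5956 with Dox. No library labelled Dox reached any library of its line without Dox. The changes were -1.50 ± 0.04, -1.62 ± 0.05 and -1.71 ± 0.04, or 2.82-fold, 3.08-fold and 3.27-fold lower, with limma adjusted p of 1.11e-16, 1.22e-14 and 1.62e-19.

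Amotl2, an angiomotin family protein that binds YAP and restrains it, had the smallest changes of the 4 targets. It ranged over 7761 to 8168 units without Dox and 3302 to 3568 with Dox in MYC-2983, 8809 to 9459.9 and 3863 to 4514 in VM-3055, and 9274 to 9982 and 4273 to 4583 in VIM-3039 cells. The changes were -1.24 ± 0.03, -1.15 ± 0.05 and -1.10 ± 0.03, with limma adjusted p of 4.49e-17, 6.45e-13 and 1.15e-17. With TMM rescaling the VM-3055 value was -0.94 and the VIM-3039 value -0.96, and both missed the limit of 1, with adjusted p of 5.08e-12 and 4.49e-17.

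Among the TEAD genes, Tead1 was called lower with Dox in MYC-2983 cells and Tead3 in VIM-3039 cells. Tead1 ranged over 6140.4 to 6731 units without and 2991 to 3312 with Dox in MYC-2983, 3489.9 to 4572 and 2120.2 to 2431 in VM-3055, and 3658 to 4041 and 1945 to 2076 in VIM-3039 cells. Its changes were -1.02 ± 0.03, -0.79 ± 0.07 and -0.96 ± 0.03 (limma adjusted p 5.02e-15, 4.70e-09 and 2.24e-16). The MYC-2983 call was lost at -0.91 with TMM rescaling, at -0.94 with quantile normalization and at -0.99 without Dox library 3. Tead3 in VIM-3039 cells was 732, 745, 748 and 787 units without Dox and 283, 271, 287 and 268 with Dox, a 2.71-fold fall (-1.44 ± 0.05, limma adjusted p = 1.28e-16). These VIM-3039 libraries without Dox stood above every other library of the series for Tead3. In MYC-2983 and VM-3055 cells the Tead3 changes were -0.97 ± 0.08 and -0.62 ± 0.11, and in MYC-2983 cells the value passed 1 when Dox library 2 or 3 or no-Dox library 3 was left out (reaching -1.02). The VM-3055 value of Tead3 was -0.41 with TMM rescaling and -0.34 with quantile normalization.

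Tead2 and Tead4 were not called in any line. The change of Tead2 was -0.02 ± 0.03 in MYC-2983 (95% interval -0.08 to 0.03), -0.55 ± 0.04 in VM-3055 and -0.36 ± 0.04 in VIM-3039. That of Tead4 was -0.45 ± 0.06, -0.04 ± 0.08 and 0.21 ± 0.08, with signs that differed between lines. With TMM rescaling the VM-3055 and VIM-3039 values of Tead2 became -0.33 and -0.22, and the sign of Tead2 in MYC-2983 (0.09) and of Tead4 in VM-3055 cells (0.17) turned.

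**Figure D3:**
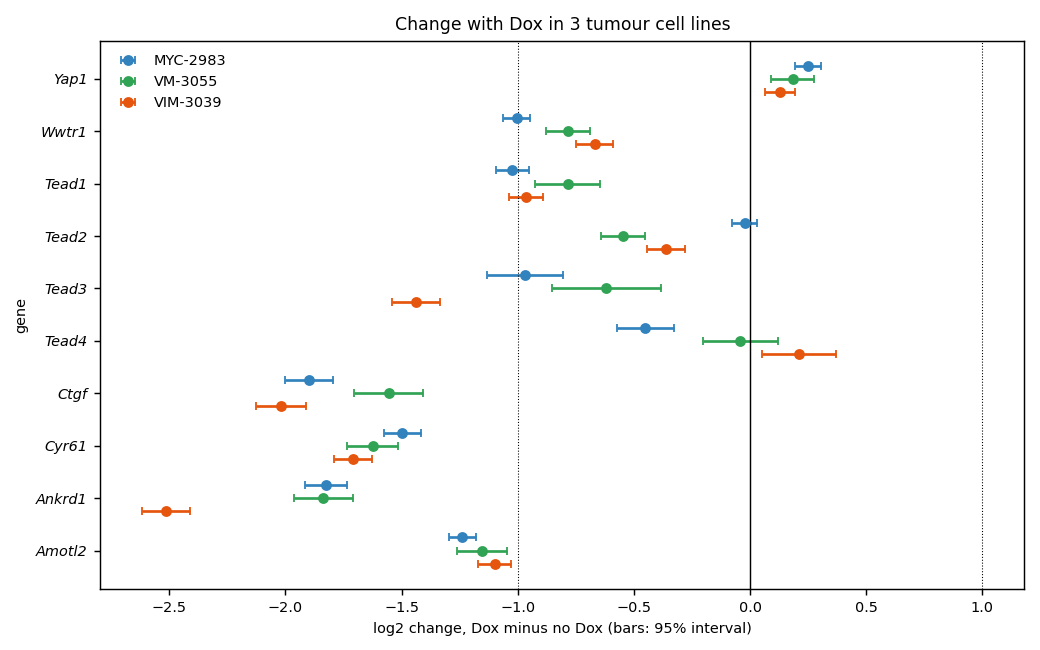
Log2 change of the 10 genes between libraries labelled Dox and libraries without Dox (points) with the 95% interval (bars) in 3 lines, with dotted lines at the limit of 1 in either direction. Ctgf, Cyr61, Ankrd1 and Amotl2 lie below -1 in each line, and Yap1 lies just above 0 (0.13 to 0.25).

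Counted over the 10 genes, 6 were called lower with Dox in MYC-2983, 4 in VM-3055 and 5 in VIM-3039, and none was called higher in any line. Of all genes tested, 15% were called lower in MYC-2983, 18.9% in VM-3055 and 16.6% in VIM-3039. The median change of the 10 genes was -1.01, -0.78 and -1.03, and that of the 4 targets -1.66, -1.59 and -1.86, beside medians of all genes tested of -0.13, -0.26 and -0.15. TMM rescaling moved the median of all genes to -0.03, -0.06 and -0.02 and that of the 4 targets to -1.55, -1.38 and -1.72. Over all genes, 678 were called higher and 2264 lower in MYC-2983, 847 and 2707 in VM-3055, and 1074 and 2322 in VIM-3039 cells, and this split moved to 1073 and 1480, 1490 and 1591, and 1529 and 1572 with quantile normalization, and with TMM rescaling to 1310 and 2061 in VM-3055 and 1401 and 1904 in VIM-3039 cells. The summed level of 6 fibroblast and mural markers moved in the same direction in each line, at 549.9 to 614 units without and 126 to 150.4 with Dox in MYC-2983, 22.9 to 35.7 and 2.63 to 5.96 in VM-3055, and 96.9 to 143 and 31.2 to 54.1 in VIM-3039 cells. That of 6 immediate early genes was also lower with Dox, at 5479.8 to 5776 units without and 3488 to 3738 with Dox in MYC-2983, 3659 to 3827 and 2577 to 3002 in VM-3055, and 2594 to 2801 and 2448 to 2528 in VIM-3039 cells. So were those of 4 kidney tubule epithelium markers (16419 to 17404 and 11255 to 12803, 13210.0 to 13699 and 6060.5 to 6239, 9717 to 10402 and 5689 to 5792 units) and of 5 leukocyte markers (439.6 to 466 and 218 to 254, 944 to 1013 and 362 to 404, 369 to 444 and 287 to 313 units). Single tubule epithelium markers did not share 1 direction: 0 of 4 were called in MYC-2983, 1 was called lower in VM-3055 and 1 was called higher in VIM-3039 cells, with list medians of -0.13, -0.50 and 0.20. All 6 immediate early genes fell in MYC-2983, while 2 of them rose in VM-3055 and 3 in VIM-3039. Their median changes were -0.59, -0.50 and -0.03, with 0, 0 and 1 called lower. Of the leukocyte markers tested, 1 of 3 was called lower in MYC-2983, 4 of 4 in VM-3055 and 0 of 3 in VIM-3039. In VIM-3039 cells 1 of these 3 rose. Of the fibroblast and mural markers tested, 3 of 5 were called lower in MYC-2983, 2 of 4 in VM-3055 and 1 of 2 in VIM-3039. In MYC-2983 cells 1 of these 5 rose. Not every marker list is given here, so the falls of these sums do not stand for all lists. The part of these markers in the results was not tested. Lum and Rgs5, which mark fibroblasts and pericytes, were at or under 3 reads in every library of the 3 lines except for Lum in some MYC-2983 libraries labelled Dox, and the 5 endothelial markers summed to at most 12.5 units in any cell library.

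The size of the Dox change was compared between lines by the interaction, that is, the difference of the changes. No member was called in any of the 3 interactions by limma, and none by edgeR, while 8.78% of all genes were called for VM-3055 minus MYC-2983, 9.06% for VIM-3039 minus MYC-2983 and 6.05% for VIM-3039 minus VM-3055. At an unadjusted p under 0.05 there were 6, 8 and 6 members. At an adjusted p under 0.05 without the limit of 1 there were 5, 8 and 4 of the 10 members, against 46.2%, 47.6% and 33.3% of all genes. For Ankrd1 the fall in VIM-3039 cells exceeded that in MYC-2983 cells by 0.69 ± 0.08 (adjusted p = 2.29e-07) and that in VM-3055 cells by 0.68 ± 0.09 (3.92e-06), where quantile normalization gave a difference of -0.40. For Tead3 the corresponding differences were -0.47 ± 0.09 (0.000246) and -0.82 ± 0.13 (3.81e-05), and the second was -1.04 and called with quantile normalization. The Ctgf difference between VIM-3039 and VM-3055 was -0.46 ± 0.10 (0.00118) and turned to 0.14 with quantile normalization. For Wwtr1 the fall was smaller by 0.22 ± 0.05 in VM-3055 (0.00123) and by 0.34 ± 0.05 in VIM-3039 (2.73e-06) than in MYC-2983 cells, and the VM-3055 difference was 0.35 with TMM rescaling and 0.14 with quantile normalization. The Amotl2 differences had 95% intervals of -0.04 to 0.21, 0.05 to 0.23 and -0.07 to 0.18.

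Among other target genes of YAP and TAZ, more were called lower than higher with Dox. The list holds 18 genes and leaves out the 4 targets above. In MYC-2983 cells 8 of 18 were called lower and 0 higher (median change -0.92), in VM-3055 cells 9 of 17 tested were lower and 1 higher (-1.08), and in VIM-3039 cells 7 of 18 were lower and 0 higher (-0.85), by limma, beside 15%, 18.9% and 16.6% of all genes called lower. F3, which encodes tissue factor, the starter of blood clotting, changed by -1.91, -1.94 and -2.08. Nuak2, a kinase related to AMPK, changed by -2.08, -2.09 and -1.83, at 1357 to 1471 units without and 371 to 431 with Dox in VIM-3039 cells. Ccdc80, a matrix protein, changed by -1.49 in MYC-2983 and -2.41 in VM-3055, and Tgfb2, a TGF-beta ligand, by -1.91 in VIM-3039 cells. Fjx1, a Golgi kinase family member, was the gene called higher in VM-3055 cells (1.17).

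Of 31 Hippo kinases and regulators, 8 of 30 tested were called lower in MYC-2983, 6 of 29 in VM-3055 and 5 of 28 in VIM-3039 cells, and none was called higher. Of all genes 15%, 18.9% and 16.6% were called lower, so the share of the list lay near this background in VM-3055 and VIM-3039. The list medians were -0.50, -0.45 and -0.45, beside -0.13, -0.26 and -0.15 for all genes. Vgll3, a coactivator that binds TEAD proteins, changed by -1.76, -2.27 and -2.12, at 2159 to 2269.8 units without and 475 to 556 with Dox in VIM-3039 cells. Amot, a YAP-binding angiomotin like Amotl2, changed by -1.39, -1.46 and -1.64. Fat4, an atypical cadherin, fell by 2.07 in MYC-2983 and by 2.28 in VIM-3039 cells, and Taok3, a kinase upstream of Mst1 and Mst2, by 1.66 in VM-3055 cells. Lats2, which is both a Hippo kinase and a YAP target and stands in both lists, was called lower in all 3 lines (-1.33, -1.08 and -1.15). For its relative Lats1 the changes were 0.01, 0.04 and 0.06. Lats1 was named after its values were seen, and Lats2 likewise.

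The 3 lines also differed from each other under Dox. VM-3055 cells had less Ctgf and Ankrd1 than MYC-2983 cells, by 1.73 ± 0.07 (adjusted p = 6.71e-11) and 1.39 ± 0.06 (4.90e-11) on the log2 scale. These were the 2 of 10 members called by limma, against 24.6% of all genes. With quantile normalization the 967 higher and 2668 lower calls over all genes became 1937 and 1782. The Cyr61 difference was -0.74 ± 0.05 and that of Amotl2 0.27 ± 0.04, so the 4 targets did not share 1 direction. VIM-3039 cells had less Wwtr1 than MYC-2983 cells (-1.38 ± 0.03, adjusted p = 5.48e-14) and more Tead3 (1.05 ± 0.08, 1.34e-08), 2 of 10 members against 23.9% of all genes. There the 831 higher and 2684 lower calls became 1664 and 1788. The Tead3 difference was 0.98 and lost its call without MYC-2983 Dox library 1.

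VIM-3039 cells had less Wwtr1 than VM-3055 cells too (-1.48 ± 0.04, limma adjusted p = 4.10e-15). They had 4.64-fold more Ctgf (2.21 ± 0.07, 1.22e-13) and 3.04-fold more Ankrd1 (1.60 ± 0.06, 8.47e-13). These were 3 of 10 members against 19.1% of all genes. VIM-3039 cells thus held the lowest Wwtr1 level and the highest Ctgf level of the 3 lines, at 1012 ± 36.7 (SD, n = 4) and 12367 ± 1259 units with Dox. The targets did not share 1 direction. Mean Cyr61 with Dox was lowest in VIM-3039, at 6360 units against 7075 in VM-3055 and 11833 in MYC-2983. Against MYC-2983 the VIM-3039 differences were 0.48 for Ctgf, 0.21 for Ankrd1, 0.38 for Amotl2 and -0.90 for Cyr61, none of them called. The Yap1 levels lay close together, at 3065 ± 49.3, 2789 ± 40.2 and 2899.6 ± 63.2 units with Dox in MYC-2983, VM-3055 and VIM-3039. The Yap1 differences from MYC-2983 were -0.14 and -0.08, and both turned positive (0.01 and 0.07) with TMM rescaling, which moved the median of all genes from -0.19 and -0.18 to -0.05 and -0.04. The 3 line comparisons share libraries.

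Of the other lists, 4 of 30 tested Hippo genes were called lower and 0 higher in VM-3055 against MYC-2983 cells, 2 of 29 lower and 0 higher in VIM-3039 against MYC-2983, and 3 of 29 higher and 1 lower in VIM-3039 against VM-3055. The other targets had 1 higher and 4 lower, 3 higher and 4 lower, and 4 higher and 2 lower of 18. Calls in either direction covered 24.6%, 23.9% and 19.1% of all genes in these comparisons. Rbms3, an RNA-binding protein, was at or under 3 reads in all 8 VM-3055 libraries but at 139 to 155 units in MYC-2983 and 235 to 278 in VIM-3039 cells with Dox. Ccdc80 ranged over 3085 to 3304, 46.6 to 59.4 and 1379 to 1446 units with Dox in MYC-2983, VM-3055 and VIM-3039. Wtip, an Ajuba family LIM protein that binds Lats kinases, ranged over 444 to 494, 33.2 to 47.4 and 81.1 to 97.9 units, and Vgll3 over 463 to 559.6, 79.8 to 96.8 and 475 to 556. Fat4 lay at 40.1 to 57.1 units in MYC-2983 and 4.16 to 7.87 in VIM-3039 cells and at or under 3 reads in all VM-3055 libraries with Dox. Axl, a receptor tyrosine kinase, was higher in VIM-3039 than in MYC-2983 cells (1.638) and Gadd45a, a stress gene, was lower (-1.20).

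The 4 TEAD genes were set side by side per kilobase of annotated exon, with the exons of all transcripts joined (11.237 kb for Tead1, 4.668 for Tead2, 4.398 for Tead3 and 3.596 for Tead4). Tead2 took the largest mean share of the summed TEAD level per kilobase in all cell groups except MYC-2983 without Dox, and Tead1 took it in all tissues. The order of Tead1 and Tead2 in cells depends on these lengths. Before division by length the mean of Tead1 was above that of Tead2 in every cell group. In VIM-3039 cells with Dox it was 2003 against 1644 units. The lengths are from GENCODE vM1 and pool another Tead1 entry on the same strand, while the values were counted on UCSC knownGene. In normal kidney Tead1 had 68.7 ± 2.86% of the sum, Tead3 26.9 ± 3.16%, Tead2 2.78 ± 0.842% and Tead4 1.65 ± 0.964% (SD, n = 5). In MYC-2983 cells with Dox the shares were 53.6 ± 1.26% for Tead2, 35.7 ± 1.37% for Tead1, 6.90 ± 0.341% for Tead4 and 3.84 ± 0.408% for Tead3. Without Dox Tead1 was at 50.4 ± 0.974% and Tead2 at 37.8 ± 0.572% there. In VIM-3039 cells Tead3 had 16.3 ± 0.220% without and 9.26 ± 0.302% with Dox, and in VM-3055 cells 7.14 ± 0.873% and 7.02 ± 0.953%. Tead4 had its largest share in VIM-3039 cells with Dox, at 12.8 ± 1.10%. Per kilobase, Wwtr1 was above Yap1 in all groups except VIM-3039 cells with Dox, where Wwtr1 was at 212 ± 7.69 and Yap1 at 313 ± 6.83 units per kilobase. In normal kidney Wwtr1 was at 442 ± 35.8 and Yap1 at 199 ± 19.3 units per kilobase.

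**Figure D4:**
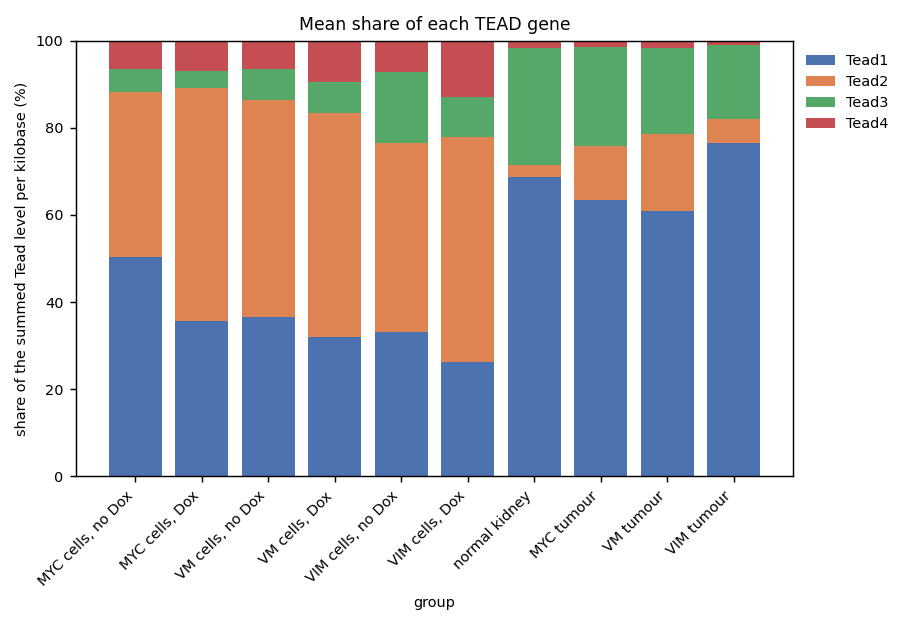
Mean share (percent, from 0 to 100) of Tead1, Tead2, Tead3 and Tead4 in their summed level per kilobase of exon in each of the 10 groups. Tead2 holds 37.8% to 53.6% in the cell groups and 2.78% to 17.5% in the tissues, where Tead1 holds 61% to 76.6%.

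In tumours, Ankrd1 was the member that stood above normal kidney in all 3 genotypes. It was 5.19, 14.6, 12.05, 1.63 and 22.8 units in the 5 normal kidneys, which is 1 to 18 estimated reads and at or under the floor of 3 reads in 2 of them. It was 172, 312 and 661 units in MYC, 43.9, 110.3 and 308 in VM and 384, 289 and 110.1 in VIM tumours. Every tumour library lay above every normal kidney. The change was 4.88 ± 0.86 (adjusted p = 0.00193), 3.60 ± 0.82 (0.0041) and 4.603 ± 0.73 (0.000566) by limma, and its size depends on the few reads in normal kidney. The tumour levels lay below the 1284 to 1512 units of VM-3055 cells with Dox, the lowest cell group.

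Tead2 was 27.7, 16.1, 26.8, 37.5 and 22.8 units in normal kidney. It was 298, 252 and 75.2 units in VM tumours, all above normal kidney, and was called there (2.77 ± 0.50, limma adjusted p = 0.00101). In MYC tumours it was 36.4, 361 and 165 units, where the first library, from mouse 2917, lay within the range of normal kidney and the other two, from mouse 2983, lay above it. The MYC change of 1.87 ± 0.69 missed the threshold (adjusted p = 0.0503) with the 2 libraries of mouse 2983 averaged. Without the library of mouse 2917 the change was 3.23, which rests on 1 tumour mouse. In VIM tumours Tead2 was 28.2, 96.5 and 40.4 units (0.90 ± 0.47, limma adjusted p = 0.133).

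Cyr61 was 663, 547, 743, 598 and 458 units in normal kidney and 948, 1505 and 1236 in VM tumours, with no overlap (1.02 ± 0.20, limma adjusted p = 0.00164). The VM change sat at the limit of 1 and lost its call at 0.87 without VM tumour library 2, at 0.99 and 0.93 without normal kidney library 2 or 5, and at 0.78 with the 2 normal kidneys titled B6 alone. In MYC tumours it was 629.7, 1042 and 2702 units (0.79 ± 0.35, limma adjusted p = 0.0904). Without the library of mouse 2917 the change was 1.497, which rests on 1 tumour mouse. In VIM tumours Cyr61 was 742, 548 and 485 units, all within the range of normal kidney.

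Ctgf did not pass the test in any tumour genotype. It was 1983, 1394, 1265, 1459 and 2897 units in normal kidney, 438, 2562 and 1460.5 in MYC, 1495, 541 and 1837 in VM and 1591, 1822 and 1481 in VIM tumours. The 95% intervals of the changes ran over -2.12 to 0.33, -1.48 to 0.31 and -0.66 to 0.51, so a lower level by 1 on the log2 scale lay within the interval in MYC and VM tumours. Amotl2 was 1218 to 1698 units in normal kidney and 2049, 2517 and 2250.0 in MYC tumours, a change of 0.71 ± 0.16 (limma adjusted p = 0.00643) under the limit of 1. In VM and VIM tumours its range was 906 to 1519 and 1188 to 1650.4 units, which overlapped normal kidney.

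Neither coactivator was called in tumours of any genotype. Yap1 was 1699 to 2148 units in normal kidney and 2095, 3054 and 2294 in MYC, 1398, 1838 and 1658 in VM and 1258, 1858 and 1311 in VIM tumours, with 95% intervals of the change of 0.02 to 0.70, -0.48 to 0.12 and -0.71 to 0.03. Wwtr1 was 1982 to 2406 units in normal kidney and 1640.3, 1477 and 1469 in VIM tumours, all lower, with a change of -0.46 ± 0.13 (limma adjusted p = 0.013). Among VM tumours Wwtr1 was 3437, 3131 and 1374 units, so the third library, from mouse 2459, lay below normal kidney and the other two lay above. Tead3 changed by -0.75 ± 0.20 in VIM tumours (limma adjusted p = 0.0114), where it was 132 to 150.4 units against 208 to 278 in normal kidney. Tead1 changes lay between 0.10 and 0.23, and Tead4 was at 4.38 to 24.04 units in normal kidney and 1.84 to 24.7 in tumours, at 1 to 20 reads per tissue library, and no difference was detectable at this depth.

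Counted over the 10 genes, 1 was called in MYC tumours, 3 in VM tumours and 1 in VIM tumours against normal kidney, all of them higher. Of all genes tested, 37.4%, 39.8% and 39.6% were called, which is above the share of the members in each genotype. The 3 comparisons share the 5 normal kidneys. Between VIM and VM tumours 0 members were called by limma and 0 by edgeR, with 2 at an unadjusted p under 0.05 (Tead2 at -1.87 and Cyr61 at -1.05), and 0.249% of all genes were called. Levels of cell type markers also differed between tumours and normal kidney, and in bulk tissue fewer cells of a type and less RNA per cell cannot be told apart. The 4 proximal tubule markers summed to 160900.0 to 205060.0 units in normal kidney and 2655 to 9673, 4686 to 6075 and 1496 to 5273 in MYC, VM and VIM tumours. The 5 endothelial markers summed to 3253 to 5579 units in normal kidney and 192 to 1431, 252 to 1949 and 446 to 1022 in tumours. The 4 tubule epithelium markers summed to 21144 to 31478 units in normal kidney and 14126 to 18193, 11253 to 17819 and 8613 to 19122 in tumours, with no overlap. Of these markers 2 were called lower and 1 higher in each genotype. The 6 immediate early genes summed to 779 to 1511 units in normal kidney and 5359 to 12122, 5277 to 5353 and 3273 to 5294 in tumours, with no overlap. The 6 fibroblast and mural markers summed to 1254 to 3768 units in normal kidney and 631 to 5410.5, 391 to 1332 and 501 to 1434 in tumours, with the highest sum in MYC tumour library 2. The 5 leukocyte markers summed to 822 to 1925 units in normal kidney and 1529.7 to 3937, 861 to 2208 and 1336 to 2706 in tumours, which overlapped. Of these leukocyte markers 2 were called higher in each genotype, and 0, 1 and 1 were called lower in MYC, VM and VIM tumours. The part of these cells and genes in the tumour results was not tested.

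**Figure D5:**
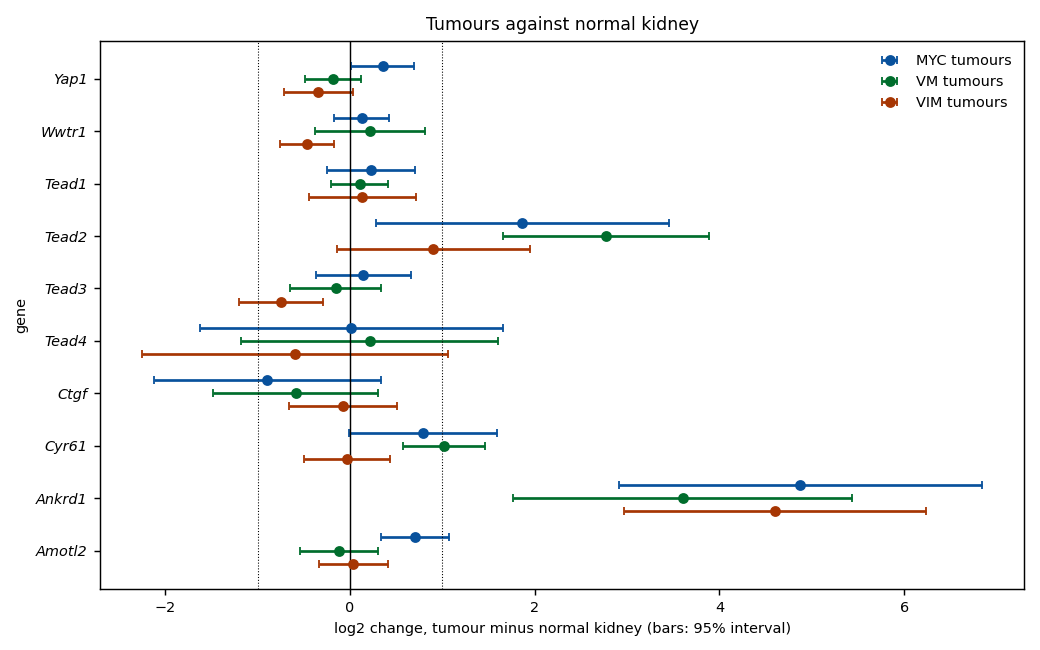
Log2 change of the 10 genes between tumours of 3 genotypes and normal kidney (points) with the 95% interval (bars) and dotted lines at the limit of 1 in either direction. Ankrd1 lies at 3.60 to 4.88, and most other intervals hold 0.

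The other lists moved in both directions in tumours. Of the Hippo genes, 7 were called higher and 4 lower in MYC tumours, 4 higher and 5 lower in VM tumours, and 1 higher and 5 lower in VIM tumours, of 29 tested. Of the other targets, 6 were higher and 5 lower of 17 tested in MYC, 4 higher and 6 lower of 17 in VM, and 4 higher and 6 lower of 18 in VIM tumours. Beside these counts, 37.4%, 39.8% and 39.6% of all genes tested were called in either direction in MYC, VM and VIM tumours. Myof, a membrane repair protein, rose by 3.96, 3.08 and 3.80, at 135 to 1029.7 units in normal kidney and 3531 to 4326, 1177 to 2977 and 2480.0 to 4678 in MYC, VM and VIM tumours. Tgfb2 rose by 3.50, 2.27 and 2.90. Nuak2 fell, with changes of -2.95, -4.15 and -3.10. Foxf2, a forkhead factor, was listed at 0 in all 5 normal kidneys and was 6.27 to 239 units in VIM tumours. Of the Hippo genes, Jub (Ajuba, a LIM protein that binds Lats kinases) rose by 1.77 in MYC and 1.42 in VIM tumours. Fat1, an atypical cadherin, rose by 1.67 in MYC and 1.19 in VM tumours. Fat4 fell, with changes of -2.16, -3.65 and -2.26, and Dchs1, the ligand of Fat4, had changes of -1.44, -2.10 and -2.35.

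Over the 10 groups the members fell into different orders. Mean Yap1 was highest in MYC-2983 cells with Dox (3065 ± 49.3 units, SD, n = 4) and lowest in VIM tumours (1476 ± 332, n = 3), a span of 2.08-fold. The 3 groups of cells with Dox came first, and from VIM-3039 cells without Dox down to VM-3055 cells without Dox each neighbour in the order overlapped the next. Mean Wwtr1 spanned 5.24-fold, from 5304 ± 162 in MYC-2983 without Dox to 1012 ± 36.7 in VIM-3039 with Dox. MYC-2983 and VM-3055 cells without Dox were not separated from each other but stood above all other groups, VIM tumours and VIM-3039 cells without Dox were not separated, and VIM-3039 cells with Dox stood below all other groups.

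Mean Ctgf spanned 38.7-fold, from 49934 ± 935 in VIM-3039 without Dox to 1291 ± 672 in VM tumours. The cell groups came first, and VM-3055 with Dox, normal kidney and the 3 tumour groups each overlapped the next. Mean Cyr61 spanned 56.4-fold, from 33354 ± 853 in MYC-2983 without Dox to 591 ± 134 in VIM tumours, and VIM tumours were not separated from normal kidney. Mean Amotl2 spanned 7.42-fold, from 9479.8 ± 338 in VIM-3039 without Dox to 1278 ± 327 in VM tumours. The 3 groups without Dox stood above the 3 with Dox, and these above MYC tumours. Mean Ankrd1 spanned 2144-fold, with the low end at 11.2 ± 8.27 units in normal kidney, where 2 of 5 libraries were at or under 3 reads. Mean Tead2 spanned 85.6-fold and every cell library, at 1475 to 2312 units, lay above every tissue library, at 16.1 to 361. Tead4 was likewise at 184 to 355 units in cells and 1.84 to 24.7 in tissue. Tead1 and Tead3 spanned 4.13-fold and 5.61-fold.

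The genes whose pattern over the 10 group means of log2(value + 1) was most like that of a member were looked up, leaving out genes whose mean over all libraries was under 50 units. For Yap1 these were Cit (Pearson r = 0.985), Hs6st2 (0.971) and Zc3h13 (0.967), and for Wwtr1 Hoxb4 (0.948), Hoxb3 (0.945) and Arcn1 (0.925). For Ctgf they were Spryd3 (0.980), Vgll3 (0.976) and Rab31 (0.971), and for Cyr61 Frmd6 (0.989), Enah (0.988) and Itga3 (0.986). Among the members, Cyr61 was at r = 0.952 with Tead2, 0.948 with Amotl2, 0.917 with Ankrd1 and 0.870 with Ctgf, and Yap1 and Wwtr1 were at 0.142 with each other. These values over 10 groups are descriptions, since cell groups against tissues set much of each pattern and the groups share lines and mice.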

How the data were processed

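RNA was measured in 38 libraries of 10 groups (TruSeq Stranded mRNA kit, paired reads of 75 bases). Per the study's methods and the submitters' processing notes, the authors aligned reads to mm9 with MapSplice, checked them with Picard 1.64, sorted and filtered them with SAMtools and UBU 1.0 and estimated counts with RSEM on UCSC knownGene. The deposited signal values are these estimates scaled by the authors to an upper quartile of 1000 in each library.

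The value of 1 read was read from the steps of low values, which gave depth and whole reads for edgeR 4.0.16 (94.1% to 95.9% of values under 20 reads were whole within 0.02). Genes above 0 in at least 4 cell libraries or 2 tissue mice were tested on log2(value + 1) with limma 3.58.1 (R 4.3.3, empirical Bayes with a mean trend, two-sided). The libraries of 1 mouse were averaged on the log2 scale. Adjusted p-values (Benjamini-Hochberg) cover all genes tested. The tests were tried on simulated data with known changes. Ratios were compared by exact permutation (scipy 1.17.1).

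The members and the gene lists were chosen with earlier results of these data known. Named were all 10 members, Myc, Vhl and Cdkn2a as label checks, at most the 3 called genes of largest rise and fall per list and comparison, and the 3 genes most like Yap1, Wwtr1, Ctgf and Cyr61 over groups. Lats1 and the Dox values of Lats2, the values of list genes in further groups or comparisons and the nucleolar genes fall outside this rule. Alternatives were other pseudocounts, filters, scalings, edgeR, a joint fit, lines without Dox, subsets of normal kidney, single libraries of a mouse, a replicate block and leaving out each library. One of the cell type marker lists is not reported here.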

Additional observations from a re-analysis of the deposited data

Results flagged for a closer look

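In groups of 4 or 5 libraries, 5 of 70 sets of values had a highest library set far off from the rest by Dixon's criterion, and chance gives about 1 in 20. Wwtr1 reached 2405.5 units in 1 normal kidney, with the next at 2093.7. Ctgf reached 8920.5 units in VM-3055 library 2 without Dox, with the next at 7569.8. That library had 36.6 M estimated reads, and the others of its group had 15.1 to 17.6 M. In its pairs within the group the mean squared difference was 10.2 to 18.6 times the variance from read counting alone. In the other pairs it was 2.62 to 4.33 times that variance. These are ratios of variances, so the ratios of spread are smaller. This library was also the highest of its group for Yap1, Wwtr1, Tead1 and Ankrd1, but not for Tead2, Tead3, Tead4, Cyr61 and Amotl2. Ankrd1 reached 13484 units in 1 MYC-2983 library without Dox, with the next at 12805. Amotl2 reached 9981.8 units in 1 VIM-3039 library without Dox, with the next at 9383.6, and 1697.7 units in 1 normal kidney, with the next at 1354.7.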

How the results depend on the processing

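Of 2400 values of single members under alternatives, 2363 stayed on their side of the threshold, 12 passed it newly, 16 no longer passed it and 9 reversed. Of the 2363, 49 changed sign from values that missed an adjusted p of 0.05, of which 4 then had an adjusted p under 0.05 and 0 were called. Of 240 counts of called members, 232 stayed within 1.5 times. The count for MYC tumours was 1 and became 2 with a pseudocount of 10, with a mean of at least 10 units or with each library on its own, and 3 with edgeR. Leaving out the library of mouse 2917 left 1 tumour mouse, so no count is given for that fit. The count stayed at 1 when any other library was left out. The count for VIM-3039 against MYC-2983 cells was 2 and became 1 with a pseudocount of 10 and without MYC-2983 Dox library 1, so the range when 1 library was left out was 1 to 2. The VIM-3039 minus VM-3055 interaction count was 0 and became 1 with quantile normalization. The cause of these changes was not tested.

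The reversed values were Ctgf in the VIM-3039 minus VM-3055 interaction (0.14 with quantile normalization), Yap1 in VM-3055 against MYC-2983 cells (0.010 with TMM) and Yap1 in VIM-3039 against MYC-2983 cells (0.067 with TMM, 0.0061 with quantile normalization and 0.041 without Dox). In cells without Dox, Wwtr1 (-0.13) and Tead2 (0.15) reversed in VM-3055 against MYC-2983, and Tead2 in VIM-3039 against MYC-2983 (0.063) and VM-3055 cells (-0.083). The values without Dox come from other libraries and compare another condition, not another processing. They differ from the values with Dox by the Dox interaction. In the same order, this was 0.22 for Wwtr1 and -0.52, -0.34 and 0.19 for Tead2. The cause of the reversals with TMM and quantile normalization was not tested. The Wwtr1 to Yap1 log2 ratio differences were -1.27 to -1.24 in MYC-2983, -0.990 to -0.946 in VM-3055 and -0.833 to -0.771 in VIM-3039 cells when 1 library was left out, where 3 against 4 libraries allow no exact p below 0.0571.

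Replicate numbers did not pair the VM and VIM libraries: same-numbered libraries with and without Dox had correlations of deviations of -0.31 to -0.05 in VM-3055 and -0.06 to 0.11 in VIM-3039 cells. With the replicate block the counts were 4 in VM-3055 cells with Dox, 5 in VIM-3039, 0 in their interaction and 3 between them, the same as without it. Over all genes, a pseudocount of 10 lowered the calls by over 1.5 times in several comparisons (2942 to 1936 for Dox in MYC-2983, 1389 to 675 for VM-3055 minus MYC-2983, 1416 to 674 for VIM-3039 minus MYC-2983, 918 to 458 for VIM-3039 minus VM-3055, 3635 to 2314 for VM-3055 against MYC-2983, 3515 to 2198 for VIM-3039 against MYC-2983 and 2691 to 1653 for VIM-3039 against VM-3055). A mean of at least 10 units gave 856, 854 and 541 for the 3 interactions, and 2342 for VIM-3039 against MYC-2983. With edgeR the interactions VM-3055 minus MYC-2983 and VIM-3039 minus VM-3055 gave 934 and 565. The 40 calls of VIM against VM tumours became 2 to 45 when 1 library was left out. Low counts limit Tead4 in tissue and Ankrd1 in normal kidney.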
